A study of Mus musculus with 2 samples.

Results

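The whey acidic protein (WAP) family was described here in the epidermis of mice labelled as lacking the calcium-sensing receptor (CaSR, gene Casr) in keratinocytes and of littermate controls. Its members were taken as every probe whose symbol, older name or gene ID led to a numbered Wfdc gene or to Slpi, and a member was kept if the detection p-value was at most 0.01 in at least 1 sample. The array held 19 probes for 16 of the 19 family genes in the RefSeq gene table, and 6 genes passed, out of 8508 genes detected in the whole series. These were Wfdc12, Wfdc5, Wfdc21, Wfdc18, Wfdc2 and Wfdc6a. The members were selected on their detection p-values, and the family was chosen by the knockout to control ratio of Wfdc12, about 3-fold in these same samples, so the knockout to control ratios are given as descriptions, with no test.

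The knockout group (KO) was labelled CaSR fl/fl Cre K14 driven and the control group (CON) CaSR fl/fl CON. Both were C57BL6 mice aged 5 days, and both carried the floxed Casr alleles. The keratin 14 promoter drives Cre in basal keratinocytes and their progeny, so resident immune cells and melanocytes of the epidermis are not its target, and the labels give no Cre for the controls. Back skin was treated with dispase to separate epidermis from dermis, and RNA of 3 mice was combined for 1 Illumina bead array in each group. There were no replicates, so no value carries an error between animals or pools, and a single array per genotype sets how precise any ratio can be. The titles and genotypes name the CaSR knockout and were followed, although the treatment protocol in one place speaks of VDR animals.

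WAP-domain proteins are small secreted proteins built around a domain held together by disulfide bonds. Several of them inhibit serine proteases, and several kill bacteria. Slpi, the best studied, inhibits neutrophil elastase and cathepsin G and protects epithelia during inflammation. In the epidermis, serine proteases of the kallikrein-related group cut the desmosomal proteins that hold corneocytes together, and inhibitors secreted by the upper layers restrain them. Most mouse Wfdc genes lie in a cluster on chromosome 2, many of them active in the epididymis or testis, and a smaller group lies on chromosome 11.

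The probe signals were read against the behaviour of the arrays. Of 25697 probes, 42.0% were detected in the KO sample and 42.4% in the CON sample, and the median log2 ratio (knockout over control) of all detected genes was 0.01 with an SD of 0.15 across genes. Where a gene had several detected probes (1872 genes), their log2 ratios scattered with an SD of 0.11, and 2 SDs come to 1.17-fold. That scatter leaves out any difference between pools of mice or between hybridisations. The Casr probe was not above background in either sample (148.2 in KO and 122.9 in CON, detection p-values 0.0639 and 0.891), so it gives no check of the genotype. Of the marker lists, 9 of 9 basal and 6 of 7 spinous keratinocyte genes were detected, with Krt14 at 15114 in KO and 17418 in CON. Of the basal genes 4 had a log2 ratio above 0 and 5 below (median -0.03). Itgb1, among the 5, was detected in CON alone. Of the spinous genes 2 lay above 0 and 4 below (median -0.04). Over all genes 51.7% lay above 0 and 47.6% below. In bulk epidermis, fewer cells of a type and less RNA per cell cannot be told apart.

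The stretches of DNA just before the start sites of Wfdc12, Wfdc15b and Wfdc18 are shown because they belong to the member with the largest difference, to the next family gene with a probe on the same chromosome, which was not detected, and to the member detected in both samples with a lower signal in KO. Each is the 250 bases upstream of the start in RefSeq's mouse assembly GRCm38.p6, written 5′ to 3′ on the gene's strand, with matches to any of 8 motifs in capitals. They lie at chr2:164190559-164190808 (minus strand), chr2:164221664-164221913 (minus strand) and chr11:83708754-83709003 (plus strand).
Wfdc12: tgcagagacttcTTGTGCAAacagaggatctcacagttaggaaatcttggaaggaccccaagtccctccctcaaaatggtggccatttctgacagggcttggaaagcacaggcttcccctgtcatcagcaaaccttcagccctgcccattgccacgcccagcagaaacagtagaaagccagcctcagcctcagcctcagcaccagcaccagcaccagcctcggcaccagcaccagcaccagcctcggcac
Wfdc15b: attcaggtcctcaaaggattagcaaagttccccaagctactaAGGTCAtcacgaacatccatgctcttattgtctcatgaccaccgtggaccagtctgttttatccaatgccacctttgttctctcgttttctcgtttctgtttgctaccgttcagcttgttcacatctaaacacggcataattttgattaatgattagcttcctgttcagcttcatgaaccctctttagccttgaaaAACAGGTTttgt
Wfdc18: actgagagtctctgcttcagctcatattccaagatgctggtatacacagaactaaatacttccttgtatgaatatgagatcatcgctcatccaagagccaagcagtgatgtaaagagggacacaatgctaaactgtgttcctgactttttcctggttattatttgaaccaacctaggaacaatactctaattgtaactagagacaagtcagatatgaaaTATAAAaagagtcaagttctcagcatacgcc

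The motifs were searched on both strands, and the share given for each is that of all 32851 windows of this length holding at least 1 match. They were the TATA box, spelled TATAAA (12.4%), the AP-1 motif TGANTCA (6.75%), the C/EBP motif TTGCNNAA (9.56%), the GATA factor motif AGATAA (9.99%), the Grainyhead motif AACNNGTT (3.64%), the nuclear receptor hexamer AGGTCA (14.0%), the KLF motif GGGTGNGGC (4.57%) and an NF-kB motif (17.6%). In the Wfdc12 window the one match was the C/EBP motif, read on the opposite strand, which begins 238 bases before the start. The Wfdc15b window held the nuclear receptor hexamer and, 12 bases before the start, a Grainyhead match. The Wfdc18 window held a TATA box 31 bases before the start. The start-proximal end of the Wfdc12 window is a run of short repeats, with 6 copies of CACCAG on the printed strand, a number reached by 5 of the 32851 windows (0.0152%). The repeat was noticed after the sequence was seen. A window was found for 15 of the 19 family genes, and a match is a description of letters, not of a bound site.

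Wfdc12 encodes a small WAP-domain protein with antibacterial activity in the mouse. Its single probe had a normalised signal of 722.9 in the KO sample and 239.5 in the CON sample, with a detection p-value of 0 in both. The knockout signal was 3.02-fold higher, a log2 ratio of 1.59, which 2 of the 8508 detected genes reached, Wfdc12 among them. Before the authors' normalisation the same probe read 949.0 in KO and 265.1 in CON, a log2 ratio of 1.84. The deposited signals include background light, which pulls every ratio closer to 1, and correcting for it by the normexp method gave a log2 ratio of 2.44, or 5.42-fold. The size of the difference therefore ran between 3.02-fold and 5.42-fold over the 9 settings tried, always towards the knockout. Settings that changed only the floor on dim signals, the detection threshold or the choice of probe left it at 3.02-fold. They cannot alter the ratio of a single bright probe, and all 9 settings used the same 2 arrays.

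**Figure D1:**
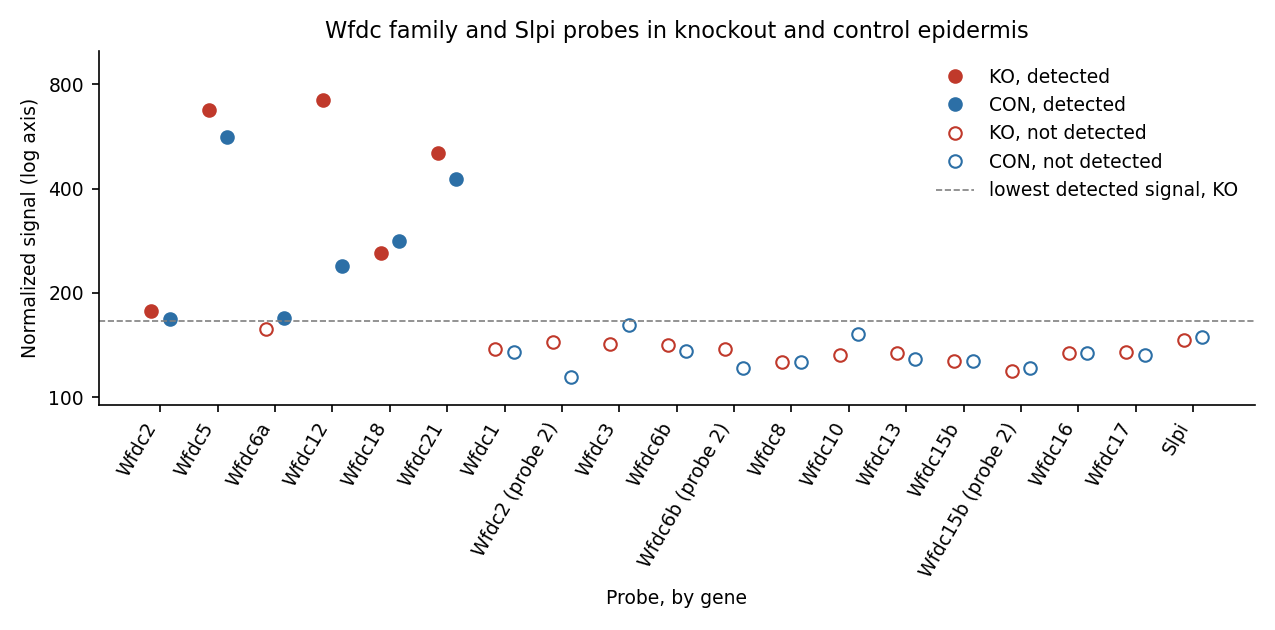
Normalised signal (log axis) of each of the 19 family probes in the KO sample (red, left) and the CON sample (blue, right), 1 array each. Filled points have a detection p-value of at most 0.01, open points do not, and the dashed line is the lowest detected signal in the KO sample (165.9). Wfdc12 is the probe whose points stand widest apart, and 13 probes sit below the line in both samples. Signals of different probes are not on a common scale.

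Wfdc5 and Wfdc21 had signals above those of the control by a much smaller margin. Wfdc5, the family gene that neighbours Wfdc12 on chromosome 2, had a signal of 675.7 in KO and 562.6 in CON, 1.2-fold higher (log2 ratio 0.26). Wfdc21, a secreted WAP-domain protein also known as Wdnm1-like, had 506.1 in KO and 427.7 in CON, 1.18-fold higher (log2 ratio 0.24). Both differences lie just past 2 SDs of probes of the same gene. Log2 ratios at least as high as that of Wfdc5 were found for 2.82% of detected genes, and at least as high as that of Wfdc21 for 3.67%. With normexp these shares were 6.56% and 6.34%. Without normalisation the log2 ratios were 0.38 (877.0 in KO and 674.0 in CON) for Wfdc5 and 0.37 (648.4 and 502.3, in the same order) for Wfdc21. Both were above 0 in all 9 settings, of which those that changed only the floor, detection threshold or choice of probe left them unchanged.

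The other detected members differed little. Wfdc18, first described as an extracellular proteinase inhibitor of the mouse mammary gland (the array lists it as Expi), had a signal of 260.9 in KO and 283.2 in CON, 1.09-fold lower (log2 ratio -0.12). Its log2 ratio ran from -0.23 to -0.05 over the 9 settings, and before normalisation it read 309.3 in KO and 320.2 in CON. Wfdc2, whose human counterpart HE4 is a serum marker of ovarian cancer, had 177.3 in KO and 167.7 in CON, 1.06-fold higher (log2 ratio 0.08) and barely above background. Its other probe read 144.0 in KO and 114.3 in CON and was not above background in either (detection p-values 0.103 and 0.996). Before normalisation the log2 ratio of the detected Wfdc2 probe was 0.14. Wfdc18 and Wfdc2 lay within 2 SDs of probes of the same gene.

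Wfdc6a passed the detection threshold through the control sample alone. Its signal was 157.8 in KO (detection p-value 0.0188, not above background) and 169.5 in CON (0.00501), so it was at least 1.02-fold lower. Before normalisation it read 176.6 in KO and 183.8 in CON. Just inside the threshold of 0.01 lay Wfdc6a and Wfdc2, whose control detection p-value was also 0.00501. Just outside it lay Wfdc3, with 142.1 in KO and 161.6 in CON (detection p-values 0.128 and 0.0163), and Wfdc10, with 132.7 in KO and 152.5 in CON (0.419 and 0.0414).

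Slpi itself was not detected. Its probe read 146.4 in KO and 148.8 in CON (detection p-values 0.0714 and 0.0564), so no fold is given. The 10 family genes below the threshold were Slpi, Wfdc1, Wfdc3, Wfdc6b, Wfdc8, Wfdc10, Wfdc13, Wfdc15b, Wfdc16 and Wfdc17. Their 12 probes read between 118.8 and 146.4 in KO and between 121.6 and 161.6 in CON. Wfdc17, a WAP-domain protein of activated mouse macrophages and microglia, was among them, with 135.3 in KO and 132.5 in CON. A signal at background does not show that a transcript is absent. Array signals of Wfdc9, Wfdc11 and Wfdc15a were not analysed here.

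Across the family, 1 of the 6 detected members was at least 1.5-fold higher in KO, against 0.176% of all detected genes. That member is Wfdc12, on which the family was chosen. No member was at least 1.5-fold lower (0 of 6, against 0.235% of all genes). At a margin of 1.2-fold, 2 members were higher (Wfdc12 and Wfdc5, against 2.87% of all genes) and 0 were lower (against 2.96%). Apart from Wfdc12, chosen on this same contrast, 1 of 5 members was higher by that margin. The genes at least 1.5-fold apart were 15 higher and 20 lower in all, but 33 higher and 16 lower with non-normalised, unscaled signals, where the median of all genes was 0.09. Wfdc5 lies on the 1.2-fold margin, so the count at 1.2-fold turns on it. The count was 3, with Wfdc21 added, in the 4 settings that used non-normalised or background-corrected signals, where between 6.55% and 10.9% of all genes were at least 1.2-fold higher. Above a log2 ratio of 0 were 4 members, against 51.7% of all genes, and below it 2, against 47.6%. Leaving out Wfdc12, 3 of 5 lay above 0. Wfdc6a, 1 of the 2 below, was detected in CON alone, so it could not lie above 0. The median log2 ratio was 0.16 over the 6 members and 0.08 over the 5 other than Wfdc12, beside 0.01 over all genes. These medians depend on which dim members enter: loosening the detection threshold to 0.05, which adds Wfdc3 and Wfdc10, gave 0.031 and -0.02, and requiring detection in both samples gave 0.24 and 0.16. With normexp they were 0.29 and 0.25.

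**Figure D2:**
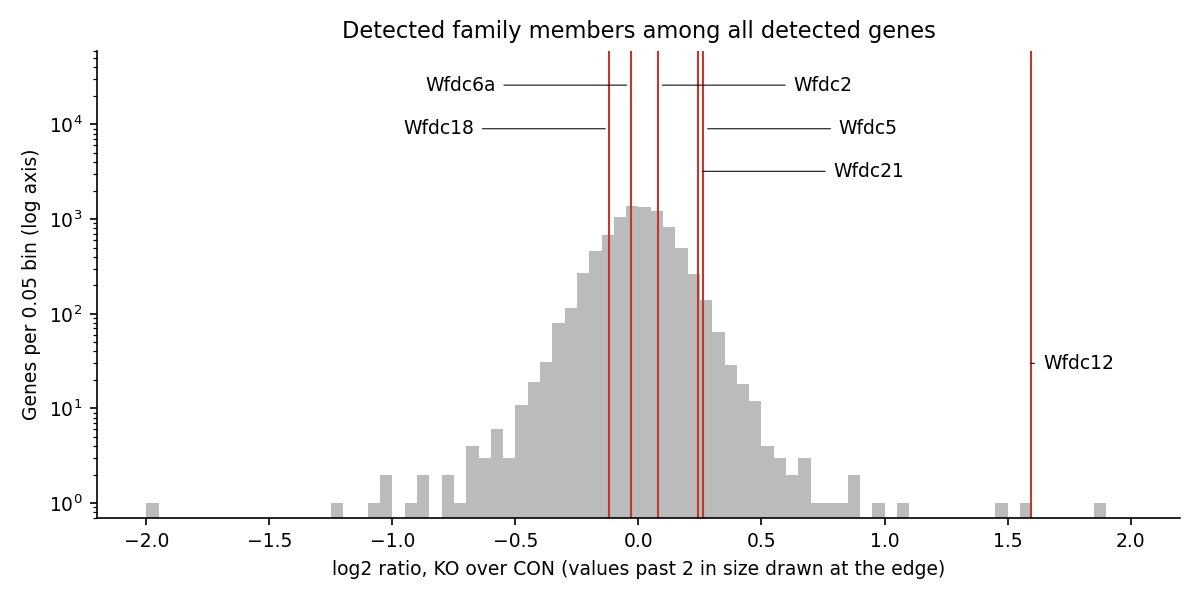
Number of detected genes (log axis) by log2 ratio of knockout over control in bins of 0.05, with the 6 detected family members as red lines. Wfdc12 at 1.59 lies in the far right tail, Wfdc5 at 0.26 and Wfdc21 at 0.24 on the right shoulder, and Wfdc2, Wfdc6a (a bound) and Wfdc18 near 0. Values past 2 in size are drawn at the edge.

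Among genes detected in KO and CON alike, those closest to Wfdc12 in log2 ratio were Chil1, a chitinase-like protein, just above it at 1.86, and Acoxl, named for its likeness to acyl-CoA oxidases, just below it (1075 in KO and 380.4 in CON). The next below were Tspan8, a tetraspanin, at 1.08 and Serpinb3a, a serpin, at 0.87. Likeness was the difference in log2 ratio over these 2 samples, which were also the ones that selected Wfdc12.

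The position of the members on the chromosomes was set beside their ratios. On chromosome 2, Wfdc5 and Wfdc12 are adjacent protein-coding genes. Stk4, the nearest detected gene on the Wfdc5 side, a kinase of the Hippo pathway, had 995.7 in KO and 1187 in CON (log2 ratio -0.25). On the other side Wfdc15b, the Svs seminal vesicle genes, Slpi, Matn4 and Rbpjl were not detected. The next detected genes were Sdc4, a heparan sulfate proteoglycan (1318 in KO and 1325 in CON), Sys1, Dbndd2 and Pigt. Their log2 ratios lay between -0.02 and 0.01. Dnttip1, at the far end of the cluster, had 0.03.

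The chromosome 11 group held neighbouring members on either side of 0. Wfdc18 and Wfdc21 are adjacent, with log2 ratios of -0.12 and 0.24, and that of Wfdc18 lay within 2 SDs of probes of the same gene. The nearest detected genes around them were the chemokine gene Ccl6, with 202.1 in KO and 186.0 in CON (log2 ratio 0.12), and Ddx52, an RNA helicase, with 534.1 in KO and 470.6 in CON (log2 ratio 0.18). Of the 8 detected neighbours of both clusters, 0 differed by 1.2-fold in either direction, against 2.87% of all genes higher and 2.96% lower, and Stk4 came closest.

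**Figure D3:**
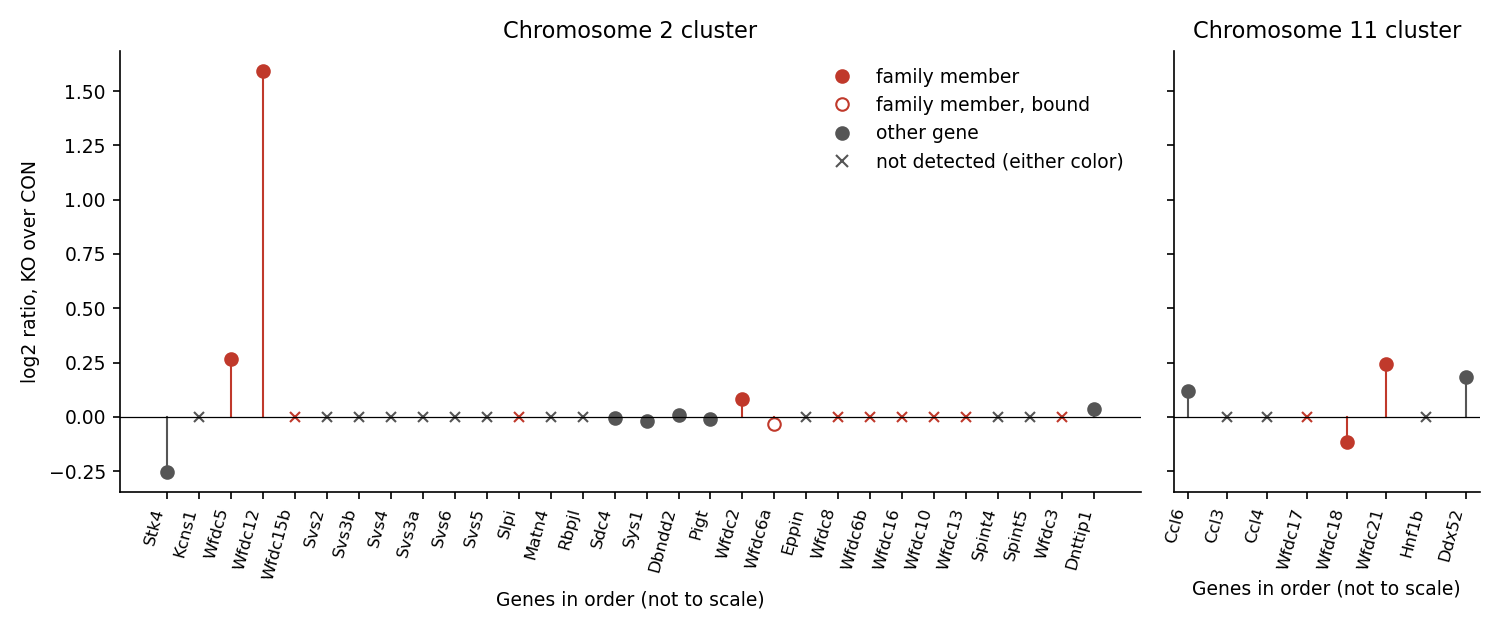
Log2 ratio of knockout over control for the genes with a probe in and around the clusters on chromosome 2 (left) and chromosome 11 (right), in chromosome order and not to scale. Red marks family members and grey other genes, an open point is a bound, and crosses stand at 0 for genes not detected in either sample. Wfdc12 stands at 1.59 beside Wfdc5 at 0.26, while the 8 detected neighbours lie between -0.25 and 0.18.

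No other WAP-domain gene was detected. Wap, the milk protein that gives the family its name, read 114.5 in KO and 122.4 in CON, the sperm-coating inhibitor gene Eppin was also at background, and so was Wfikkn2 (154.9 in KO and 149.1 in CON).

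Serine proteases, the class of enzymes that inhibitors of this kind act on, were examined next. Of 32 proteases with a probe, 14 were detected, all in both samples, and all 14 had a log2 ratio below 0 (47.6% of all genes did), a count of 11 with non-normalised signals scaled to equal medians and 9 with no scaling. Their median log2 ratio was -0.16, beside 0.01 for all genes, and stayed below 0 in the 9 settings. At least 1.2-fold lower were 4 of them (2.96% of all genes). Klk7, Klk11 and Prss27 were nearly level, with log2 ratios of -0.02 or nearer to 0, and Klk13, Tmprss4 and Prss27 also had a detected probe above 0. Klk6, a kallikrein-related protease, had 1276 in KO and 2001 in CON (1.57-fold lower). Tmprss13, a membrane-anchored protease, had 1488 in KO and 1858 in CON (1.25-fold lower). Prss22 and Klk8 were 1.22-fold lower, with 5780 in KO and 7024 in CON for Klk8. Klk7, a main desquamation protease and a target of Slpi in humans, had nearly equal signals, 7488 in KO and 7592 in CON. The neutrophil targets of Slpi were not detected. Elane, neutrophil elastase, read 160.2 in KO and 162.1 in CON, and Ctsg, cathepsin G, 126.9 and 121.1 in the same order.

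Inhibitors of other families lay on both sides of 0. Of 7 detected genes, 3 had a log2 ratio above 0 (51.7% of all genes) and 4 below (47.6%). Their median was -0.09 and ran from -0.10 to 0.01 over the settings. Serpinb1a and Serpinb8, among the 4 below, were detected in CON alone, so they could not lie above 0. Of the 5 genes detected in both samples 2 lay below 0, and their median was 0.003. Serpinb12 had 5737 in KO and 4869 in CON (1.18-fold higher). Spint1, an inhibitor of membrane-anchored proteases, had 406.3 in KO and 463.1 in CON (1.14-fold lower). Serpinb6a and Serpinb6c had log2 ratios of -0.09 and 0.09, and Serpinb1a was at least 1.07-fold lower.

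Since several WAP-domain proteins are antibacterial, other antimicrobial genes of the epidermis were set beside them. Of 21 with a probe 10 were detected, of which 4 had a log2 ratio above 0 (51.7% of all genes) and 6 below (47.6%). Their median was -0.06 and ran from -0.10 to 0.02 over the settings. Chil1, the chitinase-like protein, which was counted in this list, had 4260 in KO and 1176 in CON (3.62-fold higher). Among the rest of the list the highest was the ribonuclease gene Rnase4, with 2658 in KO and 2148 in CON (1.24-fold higher). The calprotectin subunits went the other way, S100a9 with 231.0 in KO and 349.6 in CON (1.51-fold lower) and S100a8 with 1155 in KO and 1517 in CON (1.31-fold lower). The defensin gene Defb6 had nearly equal signals, 6510 in KO and 6640 in CON.

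Genes of the granular layer and cornified envelope, where keratinocytes complete differentiation, were mostly lower in KO, and mostly by less than 1.2-fold. Of 42 with a probe 40 were detected, of which 33 had a log2 ratio below 0 (47.6% of all genes did), a count between 30 and 34 over the settings, and the median was -0.12. Lce3a, among the 33, was detected in CON alone, so it could not lie above 0. At least 1.2-fold lower were 6 of the 40 (2.96% of all genes), and 0 were higher by that margin (2.87%). At 1.5-fold 0 were lower (0.235% of all genes). Ivl, the envelope precursor involucrin, had 2319 in KO and 3250 in CON, Tgm5, a transglutaminase, 718.2 and 1005, Tchhl1 319.2 and 411.4, and Casp14, the caspase of filaggrin processing, 8673 and 10863, in the same order. The 3 detected probes of Tgm5 had log2 ratios from -0.48 to -0.14, and the signals given are those of the brightest. Dmkn and Lce1m, structural genes of the upper layers with bright probes, had log2 ratios of -0.07 and 0.11, and the probes of Dmkn disagreed in sign (-0.18 to 0.06).

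**Figure D4:**
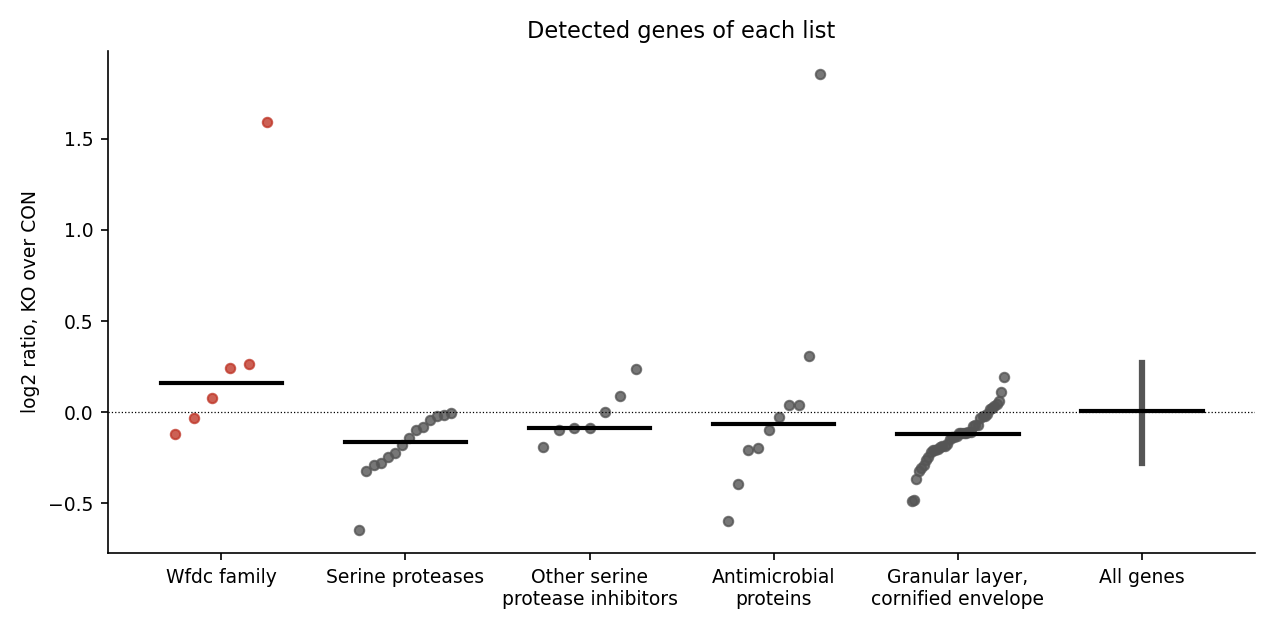
Log2 ratio of knockout over control for each detected gene (points, sorted within a list) of the Wfdc family and 4 other lists, with the median as a black bar. The grey bar on the right spans the percentiles 2.5 to 97.5 of all detected genes (-0.28 to 0.27). All 14 protease points lie below 0 (47.6% of all genes do), a count of 11 or 9 with non-normalised signals, scaled or not. Of the 6 family points 4 lie above 0 (51.7% of all genes), or 3 of 5 without Wfdc12, on which the family was chosen. Wfdc12 is at 1.59, and bounds are drawn at their value.

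Markers of other cells that can make WAP-domain proteins were checked beside the family. Of 13 neutrophil markers with a probe 3 were detected, S100a8, S100a9 and Mmp9, which keratinocytes or other cells of skin also make, while Mpo, Elane, Ngp, Camp and Ltf were at background. The summed signal of the 3 was 1637 in KO and 2100 in CON, mostly that of S100a8. Such sums weigh a list by its bright probes. Langerhans cell and macrophage markers numbered 9 detected of 17, all with a log2 ratio above 0 (51.7% of all genes). Adgre1 among them was detected in KO alone, so it could not lie below 0, and 8 were detected in both samples. At 1.2-fold there were 0, against 2.87% of all genes higher and 2.96% lower. The median was 0.09, and the list summed to 15017 in KO and 14280 in CON. Of these genes Csf1r, Cd74, H2-Ab1 and Cd207 also had a detected probe with a log2 ratio below 0. Lyz2 and Itgam were at background. Of 17 sebocyte and gland markers 8 were detected, 5 above 0 against 51.7% of all genes (median 0.04), summing to 16911 in KO and 16851 in CON. At 1.2-fold 2 of them were higher (2.87% of all genes), the melanocortin receptor gene Mc5r (1.35-fold) and Mgst1 (1.28-fold). By the same margin 2 were lower (2.96% of all genes), Awat2 (1.42-fold) and Plin2 (1.23-fold). Hair follicle keratinocyte markers summed to 24867 in KO and 29597 in CON, with 4 of 12 above 0 (51.7% of all genes) and a median of -0.12. Dsg4, among those 4, was detected in KO alone. At 1.2-fold 2 of the 12 were higher (2.87% of all genes), Shh and Hoxc13, and 2 lower (2.96%), Krt71 and Krt31. Fibroblast markers summed to 5726 in KO and 5593 in CON, with 4 of 7 above 0 (51.7% of all genes). The part of these cells in the Wfdc signals was not tested.

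**Figure D5:**
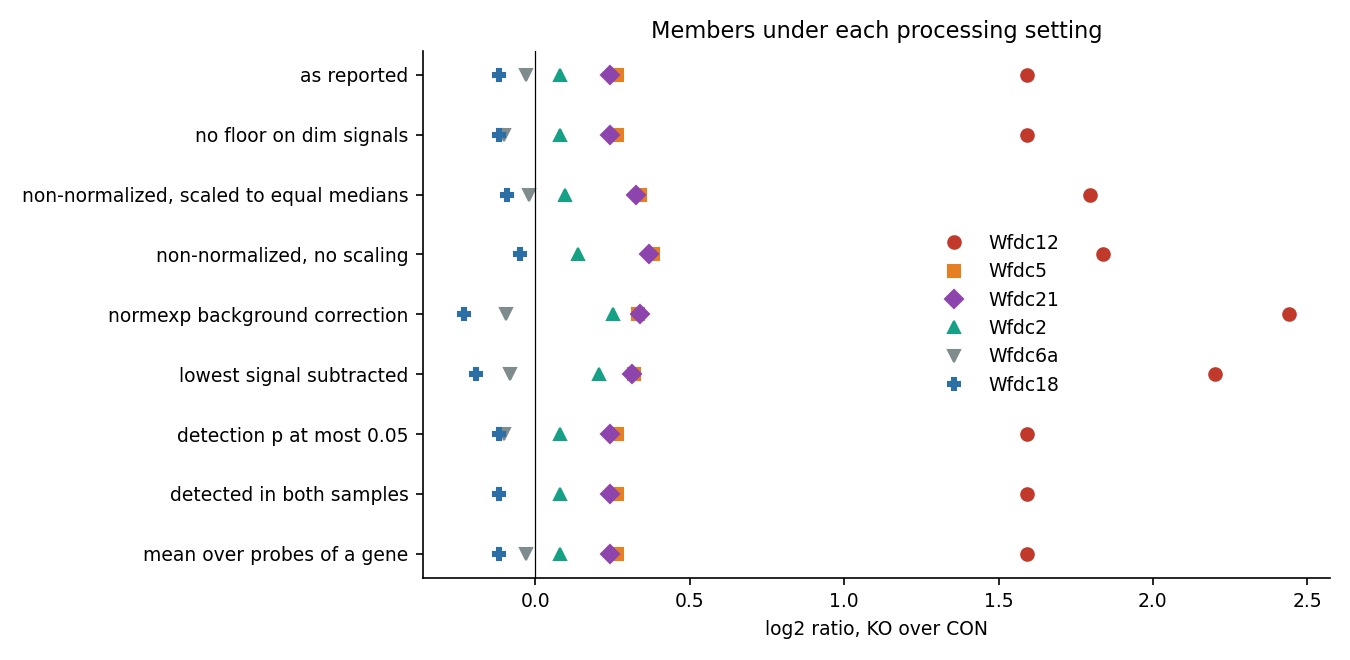
Log2 ratio of knockout over control for the 6 detected members under each of 9 processing settings. Wfdc12 runs from 1.59 to 2.44, Wfdc5 and Wfdc21 from 0.24 to 0.38, Wfdc2 from 0.08 to 0.25 and Wfdc18 from -0.23 to -0.05. Wfdc6a has a value in 7 settings.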

How the data were processed

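Epidermal RNA was measured on 2 Illumina bead arrays, 1 for each genotype. The authors deposited a linear intensity for 25697 probes before and after normalization, per the file headers, and the deposited detection p-value of each probe and array. The submitters' processing notes name GenomeStudio 2011.1, and how the signals were normalized is not stated in the labels or headers. The series value table equals the normalized table (largest difference 0). Both arrays had a median of 148.9 after normalization, against 166.1 in KO and 161.3 in CON before it. The lowest normalized signal was 106.2 in both, so background had not been subtracted.

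Normalized signals were raised to a floor, each array's lowest signal detected at the 0.01 threshold (165.9 in KO, 164.9 in CON) and expressed as log2 knockout over control. The brightest detected probe stood for a gene. A gene detected in 1 sample gave a bound, and 34 genes whose bound had no direction counted as 0. Probes were named by gene ID, accession, symbol or synonym through RefSeq genes of GRCm38.p6 (25376 of 25697 matched), used for names and order. With 1 sample a group no test was made. Python 3.11.15 and, for normexp correction with an offset of 16, R 4.3.3 with limma 3.58.1 were used. The ratio calculation was run on simulated folds planted in brighter genes. That run did not cover signals as dim as those of Wfdc18, Wfdc2 and Wfdc6a, nor the effect of background light. The named genes were all members, Casr, Krt14, up to 3 genes on each side of Wfdc12 in log2 ratio (1 above and 3 below were available), detected neighbours of the members, and from each list the 4 largest differences and the 2 brightest genes. Genes named beyond these were chosen after their values were seen. The members and lists were chosen with earlier results of these data known. Alternatives covered the floor, normalization, background, detection threshold and choice of probe.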

Additional observations from a re-analysis of the deposited data

How the results depend on the processing

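Counts, medians and the log2 ratios of the members were recomputed under 8 alternatives (6 for Wfdc6a) and the members' signals under 1, the non-normalized table, while values of marker lists and neighbours were not recomputed. Of 202 comparisons, 170 kept their value (a log2 ratio within 0.11, the SD of probes of a gene, or a count within 1.5 times), and 32 moved. The members' signals, each higher before normalization, were among those that moved. Some ratios could not move. Those of Wfdc12, Wfdc5 and Wfdc21, each with 1 bright probe, do not depend on the floor, detection threshold or choice of probe. All alternatives reused the same 2 arrays. No member changed sign, but 3 medians near 0 did: that without Wfdc12 was -0.02 with the detection threshold at 0.05, that of other inhibitors 0.01 with no scaling and 0.003 among genes detected in both samples, and that of antimicrobial genes 0.02 with no scaling. The log2 ratio of Wfdc12 was 1.80 with non-normalized signals scaled to equal medians, 1.84 with no scaling, 2.44 with normexp background correction and 2.20 with the lowest signal subtracted. The number of all genes at least 1.5-fold higher and lower in KO, 15 and 20, was 114 and 111 with normexp, 56 and 57 with the lowest signal subtracted, and 33 and 16 with no scaling. The family median was 0.29 with normexp and 0.031 with the detection threshold loosened to 0.05, which adds members at background, and without Wfdc12 it was 0.25 with normexp and 0.21 with the lowest signal subtracted. Proteases below 0 numbered 9 with no scaling, and other inhibitors below 0 numbered 2 among genes detected in both samples, where fewer genes enter. Apart from the fewer genes and added members named here, the cause was not tested. Wfdc6a has no bound with no scaling and no value where detection in both samples is required. No paired analysis was possible because each group has 1 array. Signals of Wfdc2 and Wfdc6a lay near background, where ratios can be pulled towards 1. Whether any difference lies behind the ratios of these members was not tested.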
